A study of Mus musculus with 8 samples.

Results

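The genes described here are 35 genes of protein folding in the endoplasmic reticulum (ER) and of the unfolded protein response, taken from a list by symbol. All 35 were found among the 15566 genes of the deposited count table, and 34 of them were abundant enough to be tested; Derl3 was not. Their messenger RNA was measured in Ly6C-high monocytes, the classical monocytes that the bone marrow releases into blood and inflamed tissue. The cells were sorted from femur and tibia marrow of untreated male C57BL/6 mice aged 8 weeks, as live CD45+ CD11b+ CD115+ cells that lacked CD117 and Ly6G. The deficient group, 4 libraries, came from LysMDCommd10 mice, in which Commd10, a COMMD family gene of endosomal protein trafficking, is deleted with a Cre recombinase driven from the lysozyme M locus in myeloid cells. The control group, 4 libraries, came from Commd10fl/fl littermates matched for weight, which carry the floxed gene without the deletion. Lysozyme M-driven Cre acts in granulocytes and macrophages too, so marrow cells other than these monocytes also lose the gene in the deficient mice. The labels do not say which animal or litter gave which library, so the tests see only how these libraries vary.

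Each library held 14231121 to 31040255 counts. Commd10 was at 29.2 ± 1.46 CPM (counts per 1000000 counts of the scaled library; SD, n = 4) in the controls and 21.3 ± 2.17 CPM in the deficient libraries (log2 fold change -0.46, SE 0.07, adjusted p = 0.0292 by edgeR's quasi-likelihood test). Most of the control level was thus still counted. Counts per gene cannot tell cells that kept the gene apart from reads of exons left in place. Counts of Cre were 987, 499, 569 and 740 in deficient 1 to 4 and 0 in every control. Lyz2, which holds the Cre insertion, was at 21035.5 CPM in the controls and 10379.6 CPM in the deficient libraries (log2 fold change -1.02, SE 0.05, adjusted p = 2.5e-06 by edgeR). Loss of Commd10, presence of Cre and the fall of Lyz2 come together in this design, so their effects on the genes below cannot be told apart. Of the markers of classical monocytes, Ly6c2 and Ccr2 were high in all libraries, at means of 1784 and 2450.0 CPM in the controls. Others of that list were lower, Fcgr1 at 154 CPM and Cd14 at 28.6 CPM in the controls.

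Proteins bound for the cell surface, for granules or for secretion enter the ER through the SEC61 channel and are folded there by chaperones, lectins and disulfide isomerases. When unfolded protein builds up, 3 sensors in the ER membrane respond. IRE1 (gene Ern1) splices the messenger RNA of the transcription factor XBP1, ATF6 is cut to release a transcription factor, and PERK (gene Eif2ak3) slows translation and raises ATF4. Their targets enlarge folding capacity and the disposal of misfolded protein, called ER-associated degradation. Messenger RNA levels do not show splicing of Xbp1, cleavage of ATF6 or phosphorylation by PERK, and counts per gene do not separate the spliced from the unspliced Xbp1 transcript.

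Genes for chaperones and isomerases led the 35 messenger RNAs in control monocytes when counts were scaled to gene length. In TPM (counts per base of the joined exons of GENCODE M21, scaled to a sum of 1000000 in each library), the disulfide isomerase gene P4hb was at 788 ± 31.8 (SD, n = 4), the lectin chaperone gene Calr at 643 ± 28.9 and the isomerase gene Pdia3 at 561 ± 15. The chaperone genes Hsp90b1 and Hspa5 were at 465 ± 11.6 and 313 ± 19.6 TPM, and Os9, of ER-associated degradation, lay between them at 411 ± 5.17. Transcription factors and sensors spread widely: Atf4 was at 381 ± 40.1 and Xbp1 at 295 ± 8.21 TPM, while Ern1, Atf6, Eif2ak3 and Ddit3 were at 89.1 ± 11.1, 69 ± 3.4, 48.1 ± 1.45 and 21.8 ± 1.82 TPM. At the bottom were Trib3 at 1.28 ± 0.387 and Derl3 at 0.398 ± 0.096 TPM. Derl3, an ER-associated degradation gene abundant in secretory cells, had 7, 5, 4 and 5 counts in control 1 to 4 and 8, 2, 1 and 6 counts in deficient 1 to 4. The gap between Sdf2l1 (237 ± 10.8) and Sec61b (227 ± 7.11), or between Creld2 (57.2 ± 3.84) and Sel1l (56 ± 0.564), was within the larger of each pair's SDs.

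**Figure D1:**
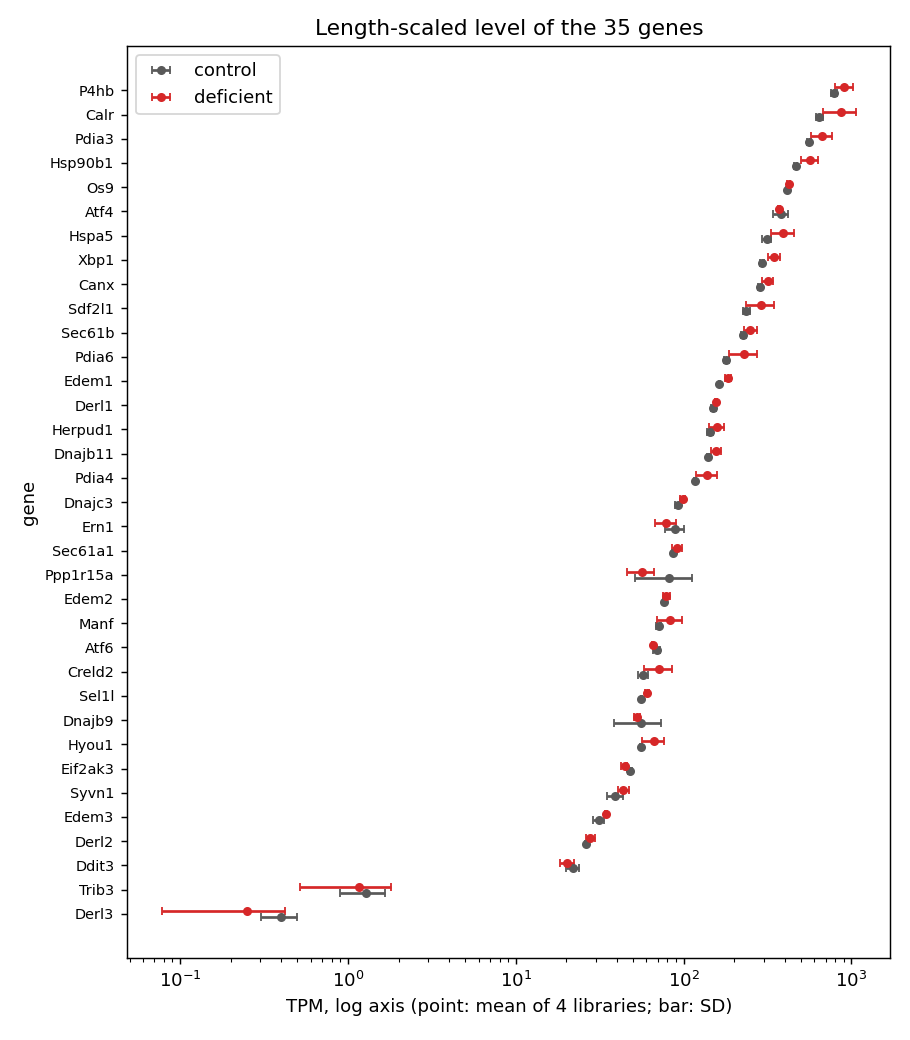
Level of each of the 35 genes in TPM on a log axis, with the mean (point) and SD (bar) of 4 control (grey) and 4 deficient (red) libraries. P4hb, at 788 TPM in the controls, lies at the top, and Trib3 and Derl3, at 1.28 and 0.398 TPM, lie far below the other genes.

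Between genotypes, folding genes were at a higher mean level in the deficient monocytes and degradation genes slightly so. For folding genes the difference lay mainly in deficient 2 and 4, with median log2 ratios to the control mean of 0.48 and 0.33. Deficient 1 and 3 were at 0.06 and 0.02. The 5 genes placed with PERK and ATF4 had lower means. No difference passed the threshold of an adjusted p under 0.05. By edgeR's quasi-likelihood test 0 of the 34 tested genes were past it, against 113 of all 12938 tested genes (0.873%; 0.356% higher and 0.518% lower). At an unadjusted p under 0.05 there were 17 of 34, of which 15 were higher and 2 lower, where 24% of all tested genes were (11.9% higher and 12.1% lower). DESeq2, run as an alternative, put 5 past an adjusted p of 0.05, all higher (Xbp1, Edem1, Hsp90b1, Hspa5 and Pdia6), where 7.54% of the genes it tested were past it (3.53% higher and 4.01% lower). A total of 26 of the 34 genes had a log2 fold change above 0, against 50.2% of all tested genes, and their median was 0.13, against 0.00072. The 4 deficient values lay wholly above or below the 4 control values in 6 of the 34, against 12.6% of all tested genes (5.93% above and 6.7% below): Xbp1, Edem1, Hsp90b1 and Sel1l above, Atf6 and Eif2ak3 below. In bulk RNA, a change in the share of cells of a type and a change in RNA per cell cannot be told apart.

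**Figure D2:**
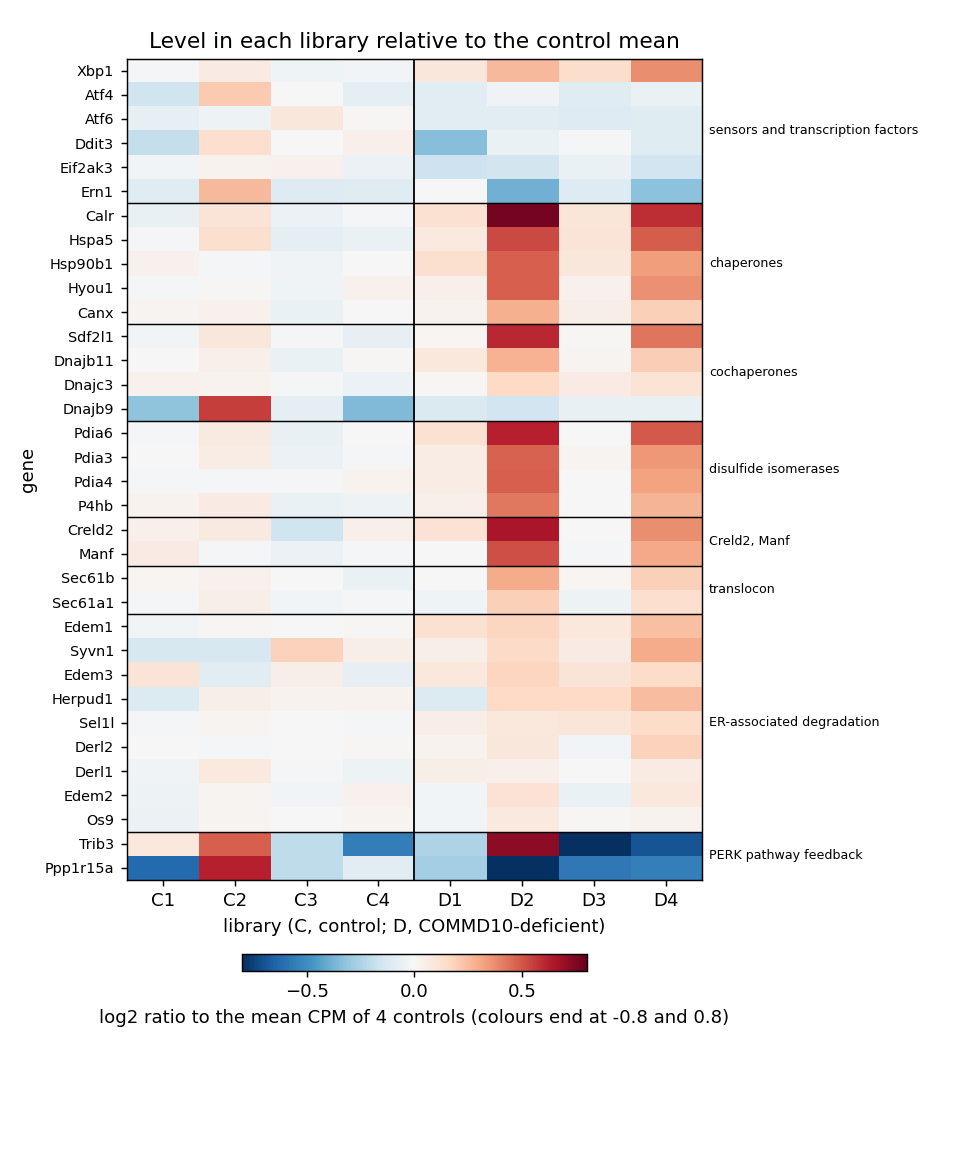
Log2 ratio of each tested gene (rows, grouped by function) in each library (columns, C1 to C4 control, D1 to D4 deficient) to the mean CPM of the 4 controls; red is above and blue below that mean. Calr in D2 is the highest ratio; chaperones and isomerases are red in D2 and D4, Trib3 is high in D2, Ppp1r15a and Dnajb9 are high in C2, and D1 and D3 are close to the controls in most rows.

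Of the 6 sensors and transcription factors, only Xbp1 had a higher mean in the deficient group. Xbp1 (ENSMUSG00000020484, chromosome 11, 5520659 to 5525893, plus strand, GRCm38) encodes the transcription factor that drives folding and degradation genes once its RNA is spliced. It was at 282, 298, 278 and 281 CPM in control 1 to 4 and at 304, 340.5, 314 and 369 CPM in deficient 1 to 4. Every deficient library lay above every control, deficient 1 by the smallest margin (log2 fold change 0.22, SE 0.06, adjusted p = 0.0736). With 1 library left out, the adjusted p ranged from 0.0390 (without deficient 1) to 0.223, so the call rests on which libraries enter.

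Ern1, which encodes the kinase and nuclease that splices Xbp1, went the other way in the means. It was at 203, 259, 202 and 203 CPM in the controls and 216, 166, 202 and 172 CPM in the deficient libraries (log2 fold change -0.20, SE 0.11, adjusted p = 0.307). Deficient 2 and 4 were the lowest of all 8 libraries and control 2 stood far above the other controls, while deficient 1 and 3 overlapped them; without control 2 the log2 fold change was -0.10.

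Atf6, whose product is cut to an active transcription factor, was at 181, 185, 202 and 191 CPM in the controls and within a narrow band of 178, 179, 176 and 177 CPM in the deficient libraries (log2 fold change -0.09, SE 0.04, adjusted p = 0.192). All 4 deficient values were below all 4 controls, the nearest pair being control 1 and deficient 2. Eif2ak3, which encodes PERK, was likewise lower without overlap, at 85, 88.1, 88.3 and 83.7 CPM against 76.9, 78, 83.2 and 77.5 CPM (log2 fold change -0.13, SE 0.04, adjusted p = 0.114). Its closest values were those of control 4 and deficient 3, and part of its exons, 485 bases, is shared with a rarely counted gene on the opposite strand.

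Atf4, the transcription factor downstream of PERK, was at 239, 309, 267 and 255 CPM in the controls and 252, 263, 250.2 and 258 CPM in the deficient libraries (log2 fold change -0.06, SE 0.07, adjusted p = 0.580). The deficient values all fell inside the control range, which control 2 widened. Without control 2 its log2 fold change was 0.0095, so no direction can be given. Ddit3, which encodes the stress factor CHOP and is a target of ATF4, was low, at 9.77, 12.2, 11.1 and 11.5 CPM against 8.81, 10.7, 11 and 10.4 CPM (log2 fold change -0.13, SE 0.10, adjusted p = 0.443). The groups overlapped, with deficient 1 lowest and control 2 highest, and 68 of its exon bases are shared with Mars on the opposite strand.

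Chaperones were at a higher mean in the deficient group in all 5 cases (median log2 fold change 0.27), and 0 of the 5 passed. Hspa5 (ENSMUSG00000026864, chromosome 2, 34771970 to 34777547, plus strand) encodes BiP, the HSP70 chaperone of the ER lumen that also holds the sensors inactive. It was at 392, 431, 374 and 379 CPM in the controls and 417, 568, 423 and 552 CPM in the deficient libraries (log2 fold change 0.31, SE 0.11, adjusted p = 0.138). Deficient 2 and 4 were at 144% and 140.1% of the control mean, whereas deficient 1 and 3 were at 106% and 107%, below control 2.

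Hsp90b1 (ENSMUSG00000020048, chromosome 10, 86690209 to 86705509, minus strand) encodes GRP94, the HSP90 of the ER, which folds integrins and Toll-like receptors. Its levels were 572, 555, 547 and 557 CPM in the controls and 610.5, 778, 595 and 703 CPM in the deficient libraries (log2 fold change 0.27, SE 0.08, adjusted p = 0.0851). The controls were close together, and all 4 deficient libraries lay above them, deficient 1 and 3 only a little. The gene shares 415 exon bases with a rarely counted gene on the opposite strand. Without deficient 3 the adjusted p was 0.0359; over all fits that left out 1 library it reached 0.234.

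The promoters of Hspa5 and Hsp90b1 are shown because both hold the ER stress response element (ERSE: CCAAT, then 9 bases of any kind, then CCACG), to which NF-Y and ATF6 or XBP1 are known to bind. RefSeq's start can differ from that of the gene model used for counting. The sequences run 5′ to 3′ along the gene's strand, from 250 bases before to 50 bases after the start, from RefSeq on GRCm38.p6. Capitals mark the fixed letters of each exact match on either strand; a match on the opposite strand reads as CGTGG followed by ATTGG.
Hspa5 (chr2:34771840-34772139, plus strand): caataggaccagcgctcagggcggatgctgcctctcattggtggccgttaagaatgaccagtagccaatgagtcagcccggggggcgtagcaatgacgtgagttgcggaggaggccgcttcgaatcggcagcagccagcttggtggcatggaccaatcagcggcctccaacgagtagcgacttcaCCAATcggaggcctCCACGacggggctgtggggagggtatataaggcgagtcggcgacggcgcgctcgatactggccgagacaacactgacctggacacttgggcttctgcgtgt
Hsp90b1 (chr10:86705395-86705694, minus strand): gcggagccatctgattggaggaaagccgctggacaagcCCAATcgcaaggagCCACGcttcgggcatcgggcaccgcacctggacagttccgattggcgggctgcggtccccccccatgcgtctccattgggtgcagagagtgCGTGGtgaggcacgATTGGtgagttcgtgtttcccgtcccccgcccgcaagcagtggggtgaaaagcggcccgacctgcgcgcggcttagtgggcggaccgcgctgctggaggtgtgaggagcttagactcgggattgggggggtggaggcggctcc
The single exact match in Hspa5 begins 65 bases before the start, and the pair in Hsp90b1 begins 212 and 107 bases before it, one on each strand.

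Calr had the largest difference of the folding genes. It encodes calreticulin, a calcium-binding lectin chaperone for glycoproteins, and was at 529, 593, 534 and 549 CPM in the controls and 600.4, 936, 590.5 and 831 CPM in the deficient libraries (log2 fold change 0.42, SE 0.16, adjusted p = 0.160). Deficient 2 and 4 were at 169.8% and 151% of the control mean; deficient 1 was just above control 2, the highest control, and deficient 3 just below it. Canx, which encodes calnexin, the membrane-bound lectin of the same cycle, was at 403, 406, 382 and 397 CPM against 405, 484, 410.5 and 454 CPM (log2 fold change 0.14, SE 0.06, adjusted p = 0.153). Here deficient 1 overlapped the controls and deficient 3 was slightly above them. Hyou1, which encodes the ER chaperone GRP170, a nucleotide exchange factor for BiP, differed by a log2 ratio of 0.24 ± 0.10 (SE; adjusted p = 0.163), with deficient 2 and 4 at 139% and 129% and deficient 1 and 3 at 103% and 102% of the control mean.

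**Figure D3:**
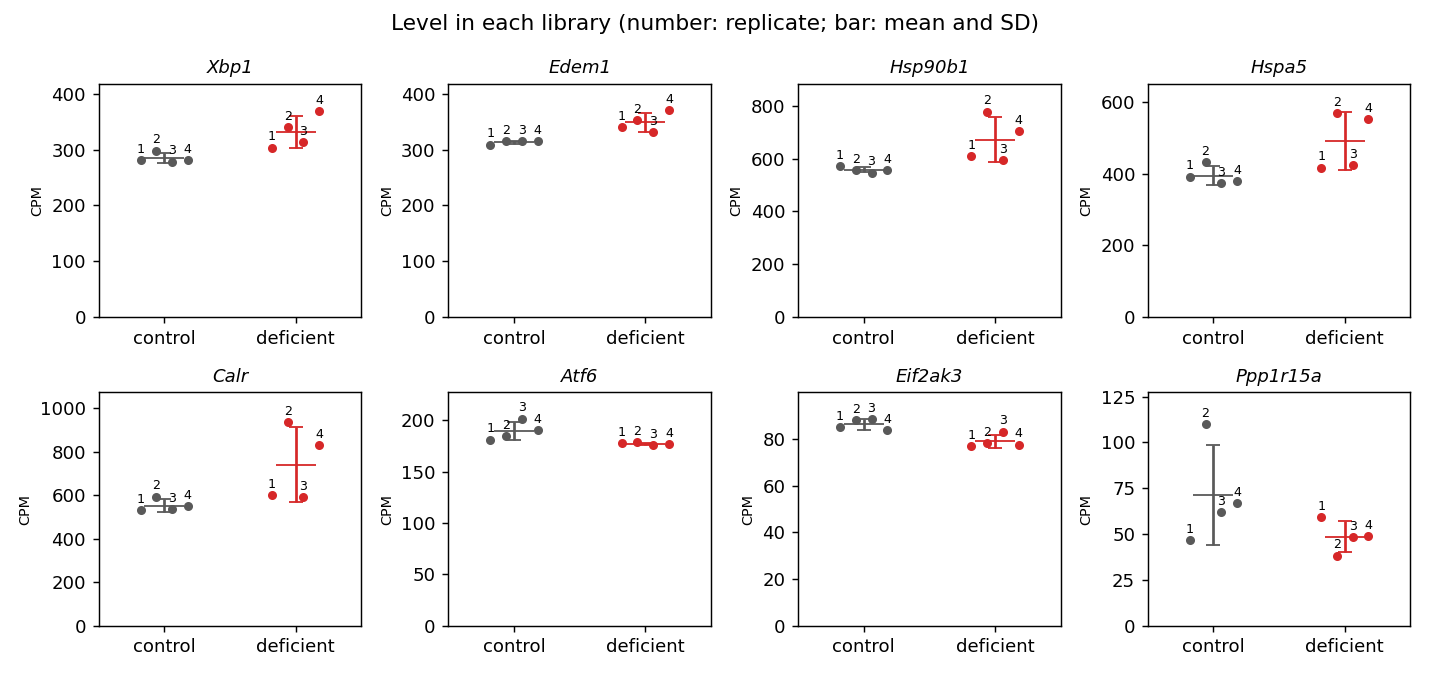
CPM of 8 genes in each library, with the replicate number beside each point and bars for the mean and SD of 4 libraries per group; every axis starts at 0. Xbp1, Edem1 and Hsp90b1 do not overlap between groups, Hspa5 and Calr are high in deficient 2 and 4, and Ppp1r15a is highest in control 2 at 110.1 CPM.

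All 4 disulfide isomerase genes had the deficient libraries in the same order (2, 4, 1, 3 from the highest), and 0 of them passed. Their products form and shuffle disulfide bonds. Pdia3, which encodes the isomerase ERp57 that works with calreticulin and calnexin, was at 524, 545, 507 and 520.0 CPM in the controls and 547, 728, 533 and 665 CPM in the deficient libraries (log2 fold change 0.24, SE 0.09, adjusted p = 0.161). Deficient 1 was marginally above the highest control and deficient 3 was inside the control range. Pdia6, Pdia4 and P4hb had log2 fold changes of 0.33, 0.23 and 0.19 (adjusted p = 0.176, 0.174 and 0.208 by edgeR). In these 3 genes deficient 2 was at 154%, 139% and 134% of the control mean and deficient 3 at 100.3%, 100.2% and 99.7%.

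Among the cochaperones of BiP, Dnajb11 (ERdj3) was at 135, 139, 129.9 and 136 CPM in the controls and 143, 164, 137 and 155 CPM in the deficient libraries (log2 fold change 0.15, SE 0.05, adjusted p = 0.135). Deficient 3 fell inside the control range and the other deficient libraries were above it. Sdf2l1, which encodes a partner of ERdj3, differed by a log2 ratio of 0.29 ± 0.13 (SE; adjusted p = 0.234), with deficient 2 at 152% and deficient 4 at 134% of the control mean, against 101% and 101% in deficient 1 and 3. Dnajc3, which encodes the BiP cochaperone P58IPK, had a log2 fold change of 0.09 (adjusted p = 0.249).

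Dnajb9 (ERdj4), an XBP1 target that promotes BiP binding to IRE1, did not share this pattern. It was at 62.3 CPM in control 2 and at 33.3 to 40.4 CPM in the other controls, with the deficient libraries between 38.3 and 40.8 CPM (log2 fold change -0.09, SE 0.20, adjusted p = 0.814). Without control 2 the log2 fold change turned to 0.15 (adjusted p = 0.212).

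Creld2 and Manf encode small ER proteins that are released from stressed cells, the latter a BiP cofactor also known as a trophic factor. They differed by log2 ratios of 0.31 ± 0.13 and 0.22 ± 0.11 (SE; adjusted p = 0.183 and 0.260). Deficient 2 was at 157% and 143% of the control mean, and deficient 3 at 100.4% and 99.1%. Manf shares up to 166 exon bases with each of 3 other genes, all counted at a lower level.

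All 9 tested genes of ER-associated degradation had a log2 fold change above 0, between 0.02 and 0.16, and 0 passed. Their median log2 ratio to the control mean was 0.04, 0.11, 0.06 and 0.15 in deficient 1 to 4. Edem1 (ENSMUSG00000030104, chromosome 6, 108828641 to 108859356, plus strand) encodes a mannosidase-like protein that marks misfolded glycoproteins for disposal and is a classical XBP1 target. It was at 309, 315, 315 and 315 CPM in the controls, which agreed closely, and 341, 353, 332 and 370.4 CPM in the deficient libraries (log2 fold change 0.16, SE 0.04, adjusted p = 0.0754). All 4 deficient values lay above the controls, deficient 4 being the highest and deficient 3 the lowest of them. Without deficient 3 its adjusted p was 0.0487; the fits that left out 1 library ran up to 0.232.

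Sel1l, the adaptor of the HRD1 ubiquitin ligase, was at 141, 145, 142 and 142 CPM in the controls and 148, 151, 153 and 158 CPM in the deficient libraries (log2 fold change 0.10, SE 0.04, adjusted p = 0.147). The groups did not overlap, though the highest control and the lowest deficient library were close. Syvn1, which encodes HRD1 itself, had a log2 fold change of 0.15, and Herpud1, which encodes a stabiliser of the HRD1 complex, 0.12 (adjusted p = 0.266 and 0.314 by edgeR). For Syvn1, 91 exon bases are shared with Mrpl49 on the opposite strand. Deficient 1 had Herpud1 at 92.3 CPM, level with control 1 at 92.2 CPM, and the other deficient libraries were at 111 to 118 CPM.

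Edem3 and Edem2, relatives of Edem1, had log2 fold changes of 0.13 and 0.03, the Derlin genes Derl2 and Derl1, which serve the passage of proteins out of the ER, 0.07 and 0.04, and Os9, a lectin that delivers glycoproteins to HRD1, 0.02 (adjusted p from 0.163 to 0.729 by edgeR). For Derl2, 231 exon bases are shared with Mis12 on the opposite strand, which was counted at a like level. Of the SEC61 channel, the subunit genes Sec61b and Sec61a1 had 0.13 and 0.07 (adjusted p = 0.236 and 0.479). Both were above all controls in deficient 2 and 4, at 123% and 114% of the control mean for Sec61b, and within 3% of the control mean in deficient 1 and 3.

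Both genes of PERK pathway feedback had lower means. Ppp1r15a encodes GADD34, the phosphatase subunit that restores translation after PERK has slowed it. It was at 46.5, 110.1, 62 and 67.1 CPM in the controls and 59.2, 38.3, 48.1 and 48.9 CPM in the deficient libraries (log2 fold change -0.55, SE 0.28, adjusted p = 0.287). Control 1 lay below 3 of the 4 deficient libraries, and control 2 was far above all others. The fits that left out 1 library gave log2 fold changes from -0.72 (without control 1) to -0.27 (without control 2). Immediate early genes, such as Fos and Jun, lay in a like order: their summed level over 12 genes was 2561, 4927, 3811 and 4663 CPM in the controls and 3706, 2670.3, 3092 and 2953 CPM in the deficient libraries. Both measures were highest in control 2, followed by control 4, control 3 and deficient 1; 1 of the 12 immediate early genes had a higher mean in the deficient group and 0 passed. Their part in the Ppp1r15a difference was not tested. Trib3, a pseudokinase gene induced by CHOP, was low, at 0.859, 1.13, 0.703 and 0.551 CPM in the controls and 0.683, 1.33, 0.409 and 0.502 CPM in the deficient libraries (log2 fold change -0.08, SE 0.36, adjusted p = 0.913). Its values overlapped fully, with deficient 2 the highest library.

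Sorted by the arm of the response, the genes divided as follows; many ER genes answer to both XBP1 and ATF6, and the assignment is one of convention. Of 12 genes placed with IRE1 and XBP1, 10 were higher and the median log2 fold change was 0.08. Of 7 placed with ATF6, 6 were higher with a median of 0.27, the exception being Atf6 itself. All 7 tested genes placed with either factor were higher, with a median of 0.15, as were the 3 with no arm (Pdia3, P4hb and Canx, median 0.19). All 5 genes of PERK and ATF4 were lower, with a median of -0.13. Further genes of the integrated stress response, given below among the companion genes, went mostly the other way. Of these, 20 of 25 tested were higher, with a median of 0.13, and 5 were lower. The list is not confined to genes downstream of ATF4, as it also holds Eif2s1, the eIF2 alpha subunit. Atf3 was lower by the most (log2 fold change -0.93, SE 0.38, adjusted p = 0.200 by edgeR). Its groups did not overlap, but control 1 and deficient 1 were both at 39.2 CPM, and control 2 was highest at 117 CPM. Atf3 is also one of the immediate early genes summed above. Over all tested genes 50.2% were higher. Without control 2, Atf4 and Trib3 of the PERK group turned positive, at 0.0095 and 0.12. No test of a difference between arms was made.

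**Figure D4:**
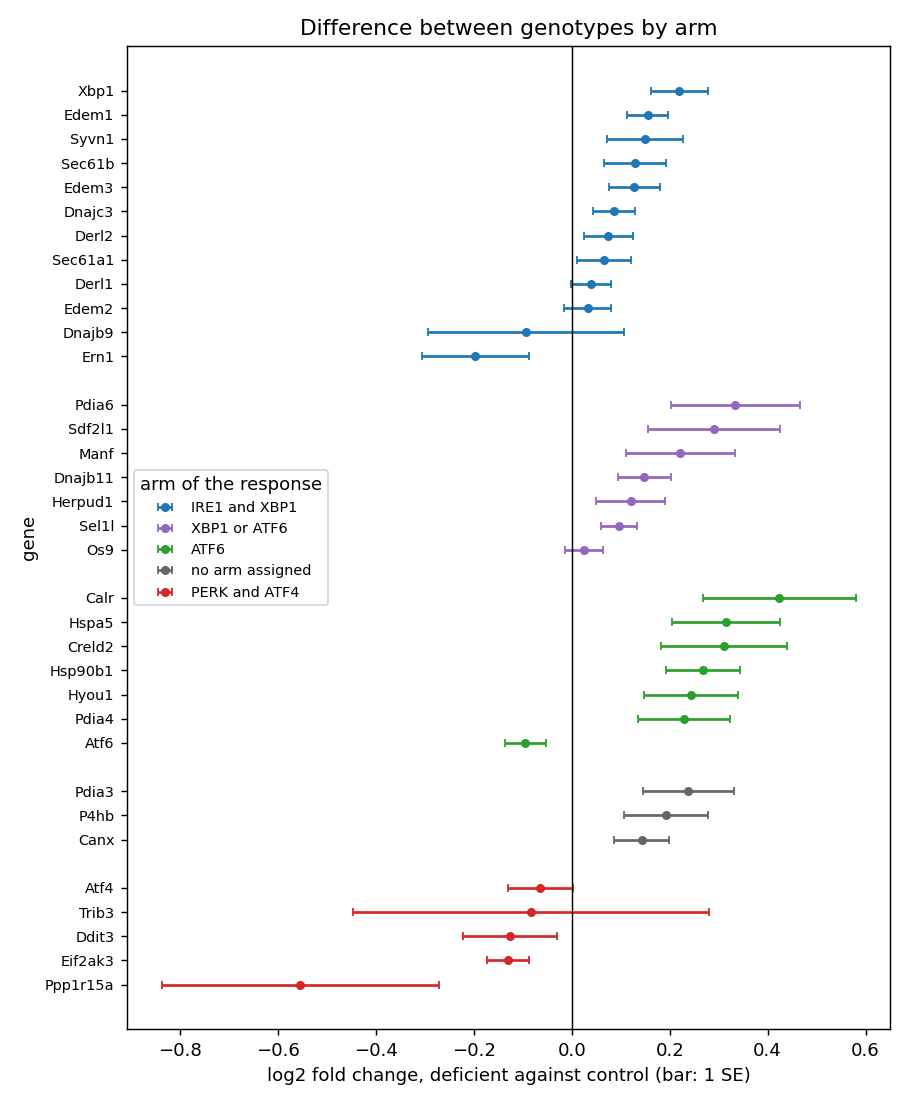
Log2 fold change of each tested gene, deficient against control, with 1 SE, sorted by the arm of the response. Genes placed with ATF6 reach 0.42 (Calr), the 5 of PERK and ATF4 lie below 0, and the widest bar is that of Trib3, at about 1 CPM.

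Exact ERSE matches were counted in the promoters of the set, 250 bases before to 50 after the start on both strands, for the 30 genes with a RefSeq promoter. They were found in 9 of the 30 genes, against 0.119% of all 32851 promoters. A gene of the set counts if any of its promoters matched, whereas the background counts single promoters. The set was listed for the response that this element belongs to, so its higher share is no result of these data. The same holds for the shares of the other elements below. The sites are given in the direction of the element, with its fixed letters in capitals, to show how far the spacer between them differs from gene to gene.
Hspa5: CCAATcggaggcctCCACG
Hsp90b1, site on the gene's strand: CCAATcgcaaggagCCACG
Hsp90b1, site on the opposite strand: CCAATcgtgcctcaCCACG
Calr: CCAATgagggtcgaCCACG
Canx: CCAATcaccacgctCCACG
Pdia6: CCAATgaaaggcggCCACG
Dnajc3: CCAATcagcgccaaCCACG
Creld2: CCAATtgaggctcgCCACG
Syvn1: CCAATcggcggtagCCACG
Derl3: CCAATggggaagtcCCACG
The 8 tested genes with a match all had a higher mean in the deficient group; their median log2 fold change was 0.29 (0.09 for Dnajc3 to 0.42 for Calr). The 21 tested genes of the set without one had a median of 0.10, with 14 higher. Apart from Syvn1, the tested genes with a match are folding genes. Those without include Xbp1, Ern1, Eif2ak3, Atf4, Ddit3 and both feedback genes, so the medians compare genes of unlike function. Folding genes without a match were Sdf2l1, Pdia3, Pdia4 and P4hb, at 0.29, 0.24, 0.23 and 0.19, Dnajb11 at 0.15 and Dnajb9 at -0.09. Whether a match bears on the level was not tested. Outside the set, 6 other tested genes held a match, of which 3 were higher, with a median of -0.014. Among these, Acacb, Xlr3b and Adcy3 were near the floor, at 0.331, 0.687 and 1.04 CPM in the controls, with SEs of 0.32, 0.70 and 0.21. Presence of a match is a description of these letters and not of binding.

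The shorter ERSE-II (ATTGG, 1 base of any kind, CCACG) was in Dnajb11 and Herpud1, 2 of 30 genes against 0.0365% of all promoters; no gene of the set held both ERSE and ERSE-II. Herpud1 also held the amino acid response element core to which ATF4 binds (CARE, searched as TGATGNAA), which was in 6.67% of the set's genes and 3.97% of all promoters. Both elements of Herpud1 are in capitals in its promoter, shown because it joins an ATF6-type and an ATF4-type element, each at a different distance from the start.
Herpud1 (chr8:94386179-94386478, plus strand): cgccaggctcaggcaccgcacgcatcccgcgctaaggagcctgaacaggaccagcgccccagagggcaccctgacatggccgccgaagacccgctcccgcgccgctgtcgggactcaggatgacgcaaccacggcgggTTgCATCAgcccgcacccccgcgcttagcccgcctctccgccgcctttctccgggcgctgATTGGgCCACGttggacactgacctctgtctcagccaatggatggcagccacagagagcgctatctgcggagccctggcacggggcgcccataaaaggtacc
The CARE match, which lies on the opposite strand, begins 112 bases and the ERSE-II match 52 bases before the start. The UPRE core (TGACGTGG), bound by XBP1, was in 0 of the 30 genes and 0.676% of all promoters; this says only that these letters are not in the window.

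The deficient libraries fell into a high and a low pair for the folding genes. Over the 15 genes for chaperones, cochaperones, isomerases, Creld2 and Manf, the median log2 ratio to the control mean was -0.00, 0.06, -0.05 and -0.01 in the 4 controls, in order, and 0.06, 0.48, 0.02 and 0.33 in deficient 1 to 4. Deficient 2 and 4 were the 2 highest libraries in 14 of the 15 genes, Dnajb9 being the exception, and in 22 of all 34, against 16% of all tested genes. Deficient 2 alone was the highest library in 20 of the 34, against 23.6% of all tested genes. These counts describe libraries picked out on the same genes and are no test of the split. For the 15 folding genes, deficient 1 was inside the control range in 7 and above it in 8, and deficient 3 inside it in 12 and above it in 3. Without deficient 2 and 4, chosen after seeing the data, the median log2 fold change of the 34 genes was 0.03 in place of 0.13 and 22 were higher.

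Other gene groups differed between the same libraries, and their part in the folding gene levels was not tested. The 9 markers of neutrophil precursors, cells that make much granule protein, summed to 1935, 2081, 1539 and 1705 CPM in control 1 to 4 and 2688, 3179, 1839.8 and 2856 CPM in deficient 1 to 4. All 9 had a higher mean in the deficient group, 0 passed, and deficient 2 and 4 were again highest while deficient 3 lay among the controls. Chil3, which monocytes can also express, made up most of this sum, at 1547 CPM in the controls and 2203 CPM in the deficient group. The sum is therefore no measure of the number of precursor cells. The median log2 ratio of these markers to the control mean was 0.27, -0.08, -0.04 and -0.27 in control 1 to 4. It was 0.57, 0.78, 0.15 and 0.75 in deficient 1 to 4. The 7 cytosolic heat shock genes summed to 1417, 1508, 1442 and 1432 CPM in the controls and 1731, 2068, 1903 and 1953 CPM in the deficient libraries, with no overlap. All 7 had a higher mean and 3 passed (Hsph1, Dnaja1 and Hspa8), against 0.873% of all tested genes. Hspa8 made up most of the sum, at 1146 CPM in the controls and 1484 CPM in the deficient group. Hspa1a overlapped between groups, at 5.35, 16.7, 8.22 and 13.7 CPM against 49.5, 24.9, 10.7 and 7.16 CPM, and so did Hspa1b. The 10 cell cycle genes summed to 2578 to 3058 CPM in the controls and to 2923 to 3617 CPM in the deficient libraries, deficient 2 being the highest, with 10 of 10 higher and 0 passed. The 8 plasma cell markers with counts, markers of a cell with a large ER, summed to 441 to 608 CPM in the controls, against 407 to 456 CPM in the deficient group; 0 of 8 were higher and 0 passed. Ighm made up most of it, at 478 CPM in the controls and 395 CPM in the deficient group, Jchain was at 2.03 and 1.22 CPM, and Mzb1 at 0.552 and 0.255 CPM.

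**Figure D5:**
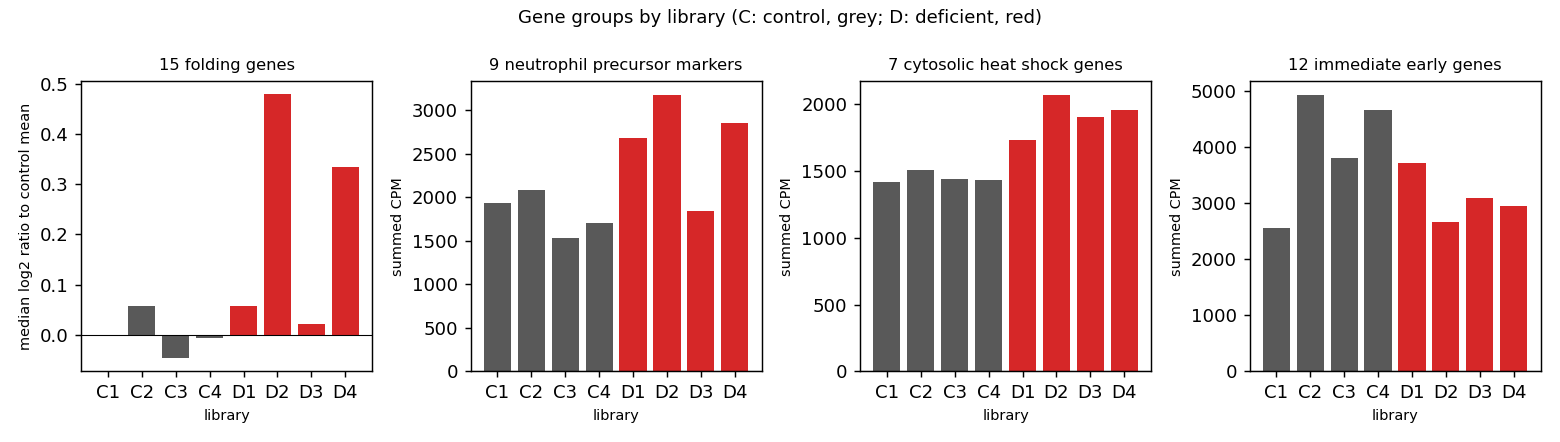
Bars per library (grey, control; red, deficient) for the median log2 ratio of the 15 folding genes to the control mean and for the summed CPM of 9 neutrophil precursor markers, 7 cytosolic heat shock genes and 12 immediate early genes. Folding genes and precursor markers are highest in D2 and D4, and immediate early genes are highest in C2. The heat shock sum is higher in all 4 deficient libraries. Chil3 makes up most of the precursor sum and Hspa8 most of the heat shock sum.

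Companion genes of the same processes numbered 145 on 7 lists, with 136 tested. In all, 104 of the 136 had a higher mean in the deficient group (median log2 fold change 0.08), and 1 passed, against 0.873% of all tested genes. That gene was Creb3l2, an ATF6-like transcription factor gene of the secretory pathway, which fell (log2 fold change -0.30, SE 0.06, adjusted p = 0.0465). It was at 28.6 CPM in the controls and 23.3 CPM in the deficient libraries, the groups not overlapping. Without control 1, 3 or 4 or deficient 2 or 4, 0 companion genes passed.

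N-glycosylation genes were higher in 18 of 20 (median 0.13). Magt1 and Ostc, of the oligosaccharyltransferase, had 0.16 and 0.15, and Mogs, the glucosidase that trims the new glycan, 0.21 (adjusted p = 0.0781, 0.116 and 0.0800 by edgeR). Of the integrated stress response genes, 20 of 25 were higher (median 0.13), with Eif2s1, the eIF2 alpha subunit that PERK phosphorylates, at 0.21, Cebpb at 0.29 and Aars at 0.22 (adjusted p = 0.0654, 0.135 and 0.135). Genes of entry into the ER were higher in 17 of 21 (median 0.05). There the signal peptidase genes Sec11a and Spcs2 had 0.19 and 0.19, and Serp1, which encodes RAMP4, a translocon partner, had -0.18 (adjusted p = 0.0852, 0.101 and 0.0585).

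Export from the ER was higher in 14 of 17 genes (median 0.08), with Sec24b, Kdelr2 and Sec13 at 0.13, 0.20 and 0.13. Further redox and folding genes were higher in 13 of 17 (median 0.07), with Fkbp2, Txndc12 and Pdia5 at 0.19, 0.15 and 0.49. Further degradation genes were higher in 12 of 19 (median 0.05), March6 and Nploc4 at 0.14 and 0.13 and Ngly1, the cytosolic glycanase, at -0.16. Regulators of the response were higher in 10 of 17 (median 0.03), with the apoptosis genes Bak1 and Bbc3 at 0.23 and -0.40. Over these 11 genes the adjusted p ran from 0.0876 to 0.232 by edgeR. Deficient 2 and 4 were the 2 highest libraries in 65 of the 136 companion genes, against 16% of all tested genes, from 2 of 17 regulators of the response to 16 of 20 N-glycosylation genes.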

How the data were processed

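Polyadenylated RNA of sorted monocytes was made into single-read NextSeq libraries, per the labels' protocols, which name no molecular identifiers. The authors deposited raw read counts for each gene, as their file headers say, and these were used. GRCm38, DESeq2, HTSeq 0.12.4, STAR 2.7.3a and cutadapt are listed in the submitters' processing notes with no roles. The sources used here do not give whether counting used strand; reads of overlapping genes cannot be told apart. The 8 columns of normalized values were not used. A row for Cre stayed out of library sizes and tests.

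In edgeR 4.0.16 under R 4.3.3, low genes were removed by filterByExpr with a minimum count of 10 and a minimum total of 15. TMM scaling and a robust quasi-likelihood fit on genotype alone followed. Every test was two-sided; adjusted p-values are Benjamini-Hochberg over all 12938 tested genes, with a threshold of 0.05. Standard errors were derived from the F statistic. DESeq2 1.42.0, other scaling, filtering and estimation, and leaving out each library were alternatives. The pipeline was tested on simulated data. A single count stood for 0.0324 to 0.0703 CPM. TPM used exon lengths of GENCODE M21 (GRCm38).

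The genes, arms and lists were chosen with earlier results of these data known. Values per library are given for the sensors and transcription factors, Hspa5, Derl3, Edem1, Ppp1r15a, Trib3 and the 6 other genes with the smallest p; of each companion list the 3 with the smallest p are named. Marker lists cover classical monocytes, neutrophil precursors, mature neutrophils, plasma cells, B cells, dendritic cells, erythroid cells, cytosolic heat shock, cell cycle and immediate early genes.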

Additional observations from a re-analysis of the deposited data

Results flagged for a closer look

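In 68 groups of 4 values (34 genes, both genotypes), 6 held a library that stood apart from the other 3 by more than the 95% critical value of Dixon's test; chance gives about 1 in 20. All 6 were control libraries. Ern1 was at 259 CPM in control 2, against 203 CPM in the next highest control. Sec61a1 was at 180.3 CPM in control 2, against 173 CPM. Pdia4 was at 85.1 CPM in control 4, against 83.1 CPM. Creld2 was at 20.8 CPM in control 3, against 23.9 CPM in the next lowest control. Herpud1 was at 92.2 CPM in control 1, against 102 CPM. Edem1 was at 309 CPM in control 1, against 315 CPM; its 3 other controls agreed so closely that a small gap sufficed.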

How the results depend on the processing

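With DESeq2's size factors or without the filter on low counts, the number of genes called over the table (113), of the 34 genes (0) and of companion genes (1), the 26 genes that were higher and their median of 0.13 all stayed within 1.5 times or 1 SD. The DESeq2 test called 843 genes, 5 of the 34 and 8 companion genes; without robust estimation there were 41 genes and 0 companion genes. Leaving out 1 library gave 1 to 522 called genes, 0 to 2 of the 34, 0 to 5 companion genes, 26 to 29 genes higher and medians from 0.10 to 0.17. The 522 came without deficient 1, 479 without deficient 3 and 298 without control 2; without control 1, 3 or 4 or deficient 2 or 4 there were 1, 3, 8, 29 and 2. Called among the 34 were Xbp1 without deficient 1, and Hsp90b1 and Edem1 without deficient 3. Without deficient 2 and 4, chosen after seeing the data, 5 genes, 0 of the 34 and 0 companion genes were called and the median was 0.027; log2 fold changes turned to -0.0058 for Manf, -0.037 for Sec61a1, -0.038 for Edem2 and -0.0063 for Os9. Without the shallowest library of each group, also chosen after seeing the data, 1 gene and 0 companion genes were called and Trib3 turned to 0.019. Signs also turned without control 2 for Atf4 (0.0095), Dnajb9 (0.15) and Trib3 (0.12), and for Trib3 without deficient 3 (0.059) or 4 (0.080). Leaving out 1 library moved Atf4 between -0.12 and 0.0095, Dnajb9 between -0.20 and 0.15 and Trib3 between -0.55 and 0.12. The cause of these shifts was not tested. No paired analysis was possible because the labels give no replicate numbers that groups share. At 1 to 8 counts per library, a difference in Derl3 was not detectable.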

Other observations

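Marker lists of other marrow cells were summed in each library. Several of their most abundant genes, such as Chil3, Irf8 and Csf3r, are also expressed by monocytes. The sort excluded Ly6G+ cells and required CD115. The 8 markers of mature neutrophils summed to 1222, 1117, 1163 and 1191 CPM in control 1 to 4 and 1244, 1245, 1108 and 1274 CPM in deficient 1 to 4. Of these, 6 had a higher mean in the deficient group and 0 passed. Csf3r and Cd177, the most abundant of them, were the lower ones (log2 fold changes -0.06 and -0.43). Without Cxcr2, at 0.840 CPM in the controls, the median log2 ratio to the control mean was 0.31, 0.59, -0.08 and 0.61 in deficient 1 to 4. In control 1 to 4 it was 0.12, -0.07, -0.19 and 0.00062. Erythroid genes, mainly haemoglobin, summed to between 359 and 625 CPM in the controls, and between 219 and 416 CPM in the deficient group, with deficient 2 and 4 the lowest of all 8; 0 of the 5 tested were higher and 0 passed. The 7 B cell markers gave 28.6 to 51.9 CPM (controls) and 19.7 to 36.5 CPM (deficient), with 0 higher and 0 passed. The 8 dendritic cell markers, mostly Irf8, summed to 670.4 to 724 CPM against 555 to 690.2 CPM, with 2 higher and 0 passed. Of the 8 classical monocyte markers, 5 were higher; 1 passed, Lyz2, which holds the Cre insertion and fell. Ly6c2 and Csf1r of that list had log2 fold changes of 0.15 and -0.12 (adjusted p = 0.0958 and 0.250 by edgeR).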
